A study of Mactra quadrangularis with 2 samples.

Results

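The 47 unigenes described here carry names of lipid metabolism or of lipoprotein uptake, and were chosen by words in their protein descriptions. A unigene is a transcript contig assembled without a genome. The words cover fatty acid, acyl-CoA, carnitine and desaturase enzymes, very-long-chain elongases, apolipoproteins and lipoprotein receptors, sterols, phospholipases, sphingolipids, ceramide and alkylglycerol, matched in the first Nr entry or in the Swiss-Prot entry. Of 54 matching unigenes, 7 with a sulfotransferase, sugar transferase, aldehyde dehydrogenase or vitellogenin name were dropped. The 47 stand among 4337 described unigenes of a table of 17625 that the authors called different, out of 124752 unigenes counted. Only called unigenes carry descriptions, so every member differed between the libraries by the authors' criterion before it could be chosen, and lipid genes without a called difference are not among them. A mollusc was the first Nr species of 28 members, both entries matched the words in 19, and 8 had no Swiss-Prot entry. Alignment bit scores of the first Nr entry ran from 53.9 to 688 with a median of 122, so a name is a similarity and not an identity.

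Digestive glands of the clam Mactra veneriformis, labelled Mactra quadrangularis as organism, came from a solvent control group and a BDE-47 group. Control clams were held in water with DMSO at 0.05% by volume, and exposed clams in water with the same DMSO and a nominal 5 µg/L of BDE-47, a brominated flame retardant, for 3 days. The series text describes 3 replicates of 30 clams per group, with the glands of 30 clams pooled for RNA. The tables hold 1 library per group, so no difference below has a replicate check, no test between conditions was possible, and each value compares these libraries.

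In bivalves the digestive gland takes up food by endocytosis, digests it inside cells and is a main store of lipid. Lipoprotein receptors of the LDL receptor family are large surface proteins with repeated ligand-binding modules that carry lipoproteins and many other ligands into the cell. Inside, small binding proteins carry fatty acids and their acyl-CoA esters to the enzymes that build, desaturate, store or oxidise them. Sphingolipid and ether lipid enzymes act on membrane lipids and on signals made from them.

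The control library held 15.6 M (mega) counted fragments and the BDE-47 library 15.9 M. Members took 21482 of the control and 17190 of the BDE-47 fragments. FPKM, the fragment count scaled by unigene length and library total, is the level. The fold is the ratio of fragments per library total, with an exact 95% counting interval that covers counting error only. The log2 ratio is BDE-47 over control of FPKM plus 0.1. A unigene is called higher or lower when its log2 ratio is at least 1 in size, it has at least 20 fragments over both libraries, and the counting interval of its fold excludes 1. In a pooled tissue, a lower level from fewer cells of a type cannot be told apart from less RNA per cell.

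By this rule 20 members were higher and 26 lower in the BDE-47 library, and 1 had 18 fragments and was not eligible. As shares of the 47 members these are 42.6% and 55.3%. Among all 4337 described unigenes, which passed the same choice by the authors, 33.9% were higher and 60.1% lower, and without the members 33.8% and 60.1%. Of the 89164 unigenes past the 20-fragment floor, described or not, 12.4% were higher and 16.2% lower. The authors' own calls put 20 members up and 27 down, beside 6.09% up and 8.04% down, or 14.1% in all, of the 124752 unigenes. Membership required such a call, so nothing is read from these shares. The median log2 ratio of the 47 members was -1.04, beside -1.19 for the other described unigenes and -0.11 for all unigenes with at least 20 fragments. Since no member lies between -1 and 1, the median of the members mainly shows which direction held more of them. By role, 6 of 8 intracellular carriers were higher, and 12 of 18 lipoprotein receptors and 5 of 7 sphingolipid and ceramide unigenes were lower. Both unigenes named for beta-oxidation enzymes were lower. The cluster of 1 of them, acyl-CoA oxidase, summed to a log2 ratio of -0.17 and was not past the rule. Differences between roles were not tested, and the shares of lower receptors and sphingolipid unigenes lie near that of all described unigenes. With a pseudocount of 1 FPKM in place of 0.1, which shrinks the log2 ratios of low levels, 15 members were higher and 19 lower. The 12 below the rule under it were CL5780.Contig1, CL5780.Contig2, CL16795.Contig1, CL16739.Contig1, CL11086.Contig1, CL11086.Contig2, CL12690.Contig1, Unigene5054, CL10063.Contig2, CL17649.Contig2, CL5366.Contig1 and Unigene24638.

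**Figure D1:**
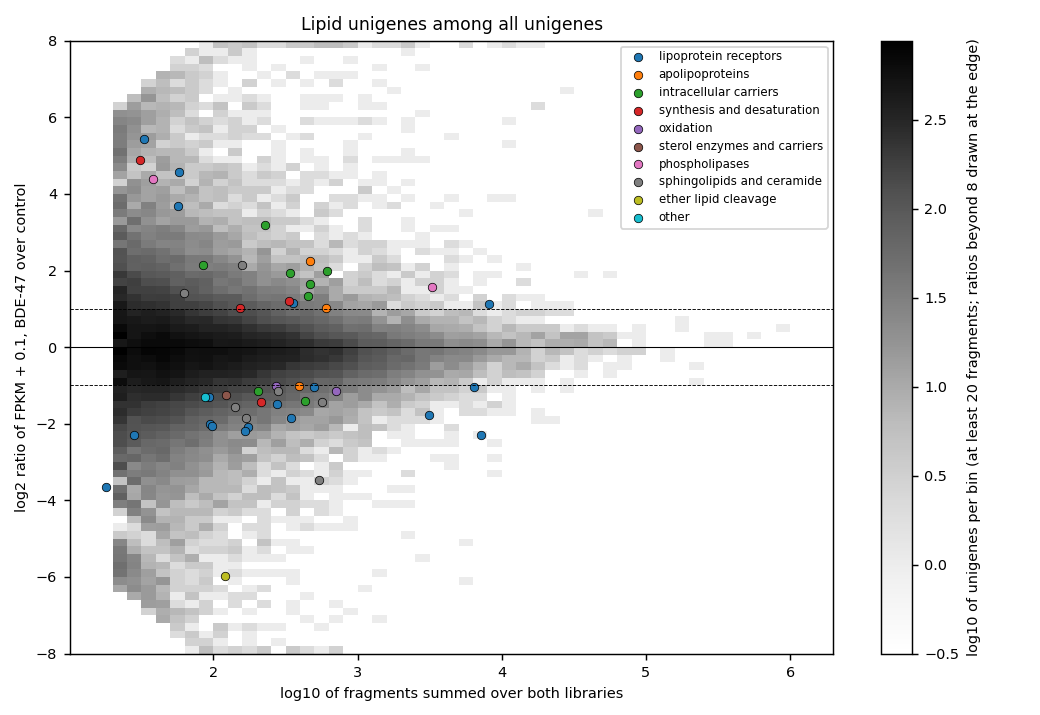
Each coloured point is 1 lipid unigene, coloured by role, with fragments summed over both libraries (log10) on the x axis and the log2 ratio of FPKM + 0.1, BDE-47 over control, on the y axis; grey bins count all unigenes with at least 20 fragments, and dashed lines mark the log2 ratio of 1 in either direction. No lipid unigene lies between the dashed lines, because the descriptions cover called unigenes only. Of the receptor unigenes with more than 1000 fragments, 3 lie below the lines. CL4650.Contig3, grouped with the receptors and with 8148 fragments, lies above them at a log2 ratio of 1.12.

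Among unigenes with a lipoprotein receptor name in Nr, the 3 with the most fragments were lower in BDE-47. The best covered pair of these was named for LRP2 (megalin), an endocytic receptor of absorptive epithelia in vertebrates. CL16739.Contig2, of 10724 bases, had 5942 control and 1231 BDE-47 fragments, that is 35.5 and 7.20 FPKM, a 4.93-fold lower value (4.64 to 5.25). Its sister CL16739.Contig1, of 11623 bases, had 4261 and 2109 fragments, or 23.5 and 11.4 FPKM, and was 2.06-fold lower (1.96 to 2.17). Both contigs were therefore lower, and the intervals of their folds did not overlap. Summed, the cluster held 10203 and 3340 fragments and a log2 ratio of -1.64. With trimmed mean (TMM) scaling, which moves log2 ratios up by at most 0.12, CL16739.Contig1 no longer reached a log2 ratio of 1 in size, nor did CL16795.Contig1, CL11086.Contig2 and CL10063.Contig2. The Swiss-Prot entry of both is a histidine-rich glycoprotein, so the receptor name rests on Nr alone.

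LRP1 and LRP1B are close relatives, LRP1 being an endocytic receptor for lipoprotein remnants in vertebrates, while LRP6 is known there as a Wnt co-receptor and LRP4 as an agrin receptor of the nerve-muscle junction. All 6 unigenes with an Nr name of LRP1B, LRP4 or LRP6 were lower, by 3.44-fold to 4.63-fold. CL152.Contig1, of 6500 bases, had 2419 control and 718 BDE-47 fragments, or 23.8 and 6.93 FPKM, and was 3.44-fold lower (3.16 to 3.74). Unigene27097, of 429 bases, had 136 and 30 fragments and was 4.63-fold lower (3.10 to 7.12). Unigene9430, the LRP6-named one, had 271 and 75 fragments and was 3.69-fold lower (2.85 to 4.83). The 3 with an LRP4 name were CL152.Contig3 with 76 and 19 fragments, Unigene23643 with 79 and 19, and Unigene37505 with 141 and 33. This group of 6 was formed with the values known and leaves out the LRP12-named contigs, which went both ways. Across these 6 the FPKM ran from 15.4 to 23.8 in the control and from 3.52 to 6.93 in BDE-47. The authors had called all 6 lower before they could be chosen, so nothing is read from this separation. All 6 counting intervals share the stretch from 3.16-fold to 3.74-fold, but the contigs are not replicates. Their lengths ran from 242 to 6500 bases, and whether the short ones are pieces of 1 transcript was not tested. A contig of 6438 bases in the same cluster, CL152.Contig2, was outside the authors' calls and carried 789 and 822 fragments, so the CL152 cluster summed to a log2 ratio of -1.10.

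Other receptor unigenes went both ways. LRP12 is a less studied member of the family, and its cluster split. CL5780.Contig1 had 106 control and 248 BDE-47 fragments, 2.29-fold higher (1.82 to 2.90), and CL5780.Contig2 had 67 and 26, 2.63-fold lower (1.65 to 4.31). The 2 summed to 173 and 274 fragments, a log2 ratio of 0.62 that was not called. A contig with a Swiss-Prot match to LRP1, CL16795.Contig1, had 334 and 163 fragments and was 2.09-fold lower (1.73 to 2.54), while its longer sister of 10335 bases, CL16795.Contig2, had 849 and 1019. CL1789.Contig6, named for a putative LDL receptor of a tick, had 24 and 4 fragments and was 6.13-fold lower (2.11 to 24.3). It is 1 of 11 contigs, which summed to 1299 and 1348 fragments.

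Several unigenes grouped with the receptors match them in Swiss-Prot only. The first Nr entry of 4 of these is a hypothetical, uncharacterized or otherwise uninformative name, and that of the other 3 is of another protein. Of the 11 with a lipoprotein receptor name in Nr, 1 was higher and 10 lower, and of the 7 named so by Swiss-Prot alone, 4 were higher and 2 lower. Among all described unigenes called by the authors, 33.9% were higher and 60.1% lower. Several of the 11 share a cluster, and the split by source of name was not tested. The proteoliaisin-like CL4650.Contig3, named for an egg surface protein of sea urchins, had the highest level of all members, with a control level of 48.3 FPKM and a BDE-47 level of 105. Its 2525 and 5623 fragments made it 2.18-fold higher (2.08 to 2.29). Its sister CL4650.Contig2, outside the authors' calls, had 8345 and 5167 fragments, and the cluster summed to 10875 and 10803, a log2 ratio of -0.04. A suppressor of tumorigenicity 14-like contig, CL1779.Contig1, named for a membrane serine protease and in KEGG for enterokinase, had 202 and 72 fragments and was 2.87-fold lower (2.18 to 3.80). Its longer sister, CL1779.Contig2, had 106 and 187. That cluster summed to 308 and 259, a log2 ratio of -0.28 that was not called.

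The remaining 4 were thinly covered. Unigene50341, with a Swiss-Prot match to LRP2, had 0 control and 33 BDE-47 fragments, at least 10.8-fold higher against a floor of 3 fragments in the control library. Unigene54468, with an Nr name of a sea urchin soft fertilization envelope protein, had 1 and 57 fragments, a ratio of 55.8 (9.62 to 2243). Unigene53352, with a Swiss-Prot match to LRP12 and a KEGG match to cubilin, an endocytic receptor of another family, had 3 and 54, a ratio of 17.6 (5.72 to 88.1). Unigene70558 had 17 and 1 fragments, too few for a call.

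Apolipoprotein names covered a lipocalin and a mitochondrial protein. The apolipoprotein D-like CL6849.Contig1, named for a lipocalin that binds small hydrophobic molecules, had 78 control and 388 BDE-47 fragments, or 3.58 and 17.4 FPKM, and was 4.87-fold higher (3.81 to 6.29). The other 3 contigs of its cluster were not higher. CL6849.Contig3 had 261 and 229 fragments, CL6849.Contig4 had 50 and 48, and the 377-base CL6849.Contig2 had 39 and 3. Apolipoprotein O-like is a protein of the mitochondrial inner membrane despite its name. Its contigs split, with 196 and 411 fragments on CL11086.Contig1, 2.05-fold higher (1.73 to 2.45), and 260 and 130 on CL11086.Contig2, 2.04-fold lower (1.65 to 2.54). With CL11086.Contig3 the cluster summed to 467 and 589 fragments and a log2 ratio of 0.30.

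Fatty acid-binding proteins, small cytosolic carriers of long-chain fatty acids or related ligands, were higher in 4 of 5 unigenes. Among all described unigenes, which like these 5 were called by the authors, 33.9% were higher and 60.1% lower. The heart-type Unigene37031 had 21 control and 208 BDE-47 fragments, a level of 1.48 and 14.4 FPKM, and was 9.70-fold higher (6.18 to 16.0). A second heart-type unigene, CL8480.Contig1, had 68 and 273 fragments, or 3.44 and 13.5 FPKM, and was 3.93-fold higher (3.00 to 5.21). Its only sister contig had 16 and 13 fragments, and the summed log2 ratio was 1.72. The 2 adipocyte-type unigenes were also higher. Unigene35509 had 110 and 354 fragments and was 3.15-fold higher (2.54 to 3.94), and Unigene36500, whose Swiss-Prot match is a retinoic acid-binding protein of the same family, had 14 and 70 and was 4.90-fold higher (2.73 to 9.41). Against these, Unigene6826 had 141 and 64 fragments and was 2.25-fold lower (1.66 to 3.07). It had the highest control level of the 5, 14.8 FPKM, where the other 4 ran from 0.688 to 7.17. The 5 together held 354 control and 969 BDE-47 fragments.

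Acyl-CoA-binding proteins hold activated fatty acids, and 2 of the 3 unigenes were higher, beside 33.9% of all described unigenes. The acyl-CoA-binding protein-like CL9540.Contig2 had 119 control and 489 BDE-47 fragments, or 5.29 and 21.3 FPKM, and was 4.02-fold higher (3.29 to 4.96). Its sister CL9540.Contig1, of similar length and outside the authors' calls, had 503 and 390 fragments. The 3 contigs of the cluster summed to 660 and 931, a log2 ratio of 0.46 that was not called. ACBD5, a protein that ties peroxisomes to the endoplasmic reticulum in mammals, gave its name to CL9100.Contig1, with 126 and 329 fragments and a 2.56-fold higher value (2.08 to 3.17). The log2 ratio of its cluster was 0.98, just under the rule. ACBD6-like CL8488.Contig1 had 312 and 117 fragments and was 2.72-fold lower (2.2 to 3.40), with a cluster log2 ratio of -1.40. Its name rests on a Swiss-Prot bit score of 53.1, while its first Nr entry is a hypothetical protein with a score of 402.5 and its KEGG match is a regulatory subunit of protein phosphatase 6.

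All 3 unigenes named for enzymes that build or desaturate fatty acids were higher, at low levels, beside 33.9% of all described unigenes. Fatty acid synthase, the multienzyme that makes palmitate, matched 2 unigenes. Unigene5054 had 49 control and 103 BDE-47 fragments, 2.06-fold higher (1.45 to 2.95), and Unigene54050 had 0 and 31, at least 10.1-fold higher against the 3-fragment floor. The delta-5 desaturase-like CL12690.Contig1, named for a front-end desaturase of polyunsaturated fatty acids in abalone, had 97 and 235 fragments and was 2.37-fold higher (1.86 to 3.04). Its sister CL12690.Contig2, of 2770 bases, had more fragments and the opposite balance, 424 and 269. The desaturase cluster held 521 control and 504 BDE-47 fragments, a log2 ratio of -0.08. CL18190.Contig3 is grouped here by its word, but the enzyme it matches acts on sterols. It matches DAF-36, a cholesterol desaturase of Caenorhabditis elegans, and Nr names it for chlorophyllide a oxygenase, which like DAF-36 is an iron-sulfur oxygenase. It had 156 and 57 fragments and was 2.79-fold lower (2.05 to 3.86), while its cluster of 3 contigs had a log2 ratio of -0.29.

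Unigenes named for oxidation enzymes were lower, though not every cluster was when summed. Medium-chain acyl-CoA dehydrogenase, which takes the first step of mitochondrial beta-oxidation, was represented by Unigene37838, with 487 control and 224 BDE-47 fragments, or 15.1 and 6.78 FPKM. It was 2.22-fold lower (1.89 to 2.61) and had no sister contig. Peroxisomal acyl-CoA oxidase 1 takes the same step in peroxisomes. CL10063.Contig2 had 183 and 90 fragments and was 2.08-fold lower (1.60 to 2.70), but its sister CL10063.Contig1 had 76 and 144. The oxidase cluster summed to 259 and 234, a log2 ratio of -0.17. Alpha-methylacyl-CoA racemase, which prepares branched-chain acyl-CoA for oxidation, was 2.53-fold lower (1.57 to 4.21) in CL11541.Contig1, with 62 and 25 fragments and a cluster log2 ratio of -1.28. The only other sterol-named contig, oxysterol-binding protein-related protein 11 (CL17649.Contig2), of a family that moves lipids between membranes, had 87 and 36 fragments, 2.47-fold lower (1.66 to 3.75), beside 129 and 132 on its longer sister.

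Phospholipase words matched an enzyme and a receptor, both higher. Unigene57109 matches the secretory phospholipase A2 receptor and, in Nr, a low affinity immunoglobulin epsilon Fc receptor, both of which carry C-type lectin domains. It had 811 control and 2472 BDE-47 fragments, or 24.7 and 73.6 FPKM, and was 2.98-fold higher (2.76 to 3.24). No other member reached a higher BDE-47 level except CL4650.Contig3. A phospholipase A2-like unigene, Unigene58416, whose entries are viper venom proteins, had 1 and 37 fragments, a ratio of 36.2 (6.11 to 1469).

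Of the 7 sphingolipid and ceramide unigenes, 5 carried the name of CSH1, a yeast enzyme that adds mannose to inositol phosphoceramide. Of these, 1 was higher and 4 lower, beside 33.9% higher and 60.1% lower of all described unigenes. CL5366.Contig3 had 493 control and 42 BDE-47 fragments, or 12.9 and 1.07 FPKM, and was 12.0-fold lower (8.74 to 16.8). Its sister CL5366.Contig1, of similar length, had 15 and 47 fragments and was 3.07-fold higher (1.69 to 5.91). The CL5366 cluster was lower when summed, with 532 and 125 fragments and a log2 ratio of -2.09. Unigene7087 had 414 and 154 fragments and was 2.75-fold lower (2.28 to 3.33), and CL321.Contig1 had 133 and 36 and was 3.77-fold lower (2.59 to 5.62). The 4 contigs of the CL321 cluster summed to 323 and 171 fragments, a log2 ratio of -0.94 that was not called. CL17360.Contig1 had 105 and 35 fragments, and its shorter sister CL17360.Contig2 had 5 and 17 and was called higher. Summed, the CL17360 cluster had a log2 ratio of -1.09. The 5 CSH1-named unigenes together held 1160 control and 314 BDE-47 fragments. None of them had a Swiss-Prot entry.

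The other 2 sphingolipid unigenes differed in direction. Sphingosine kinase 2, which makes the signal lipid sphingosine 1-phosphate, was represented by Unigene24638, with 193 control and 87 BDE-47 fragments, 2.27-fold lower (1.75 to 2.95). Acid sphingomyelinase-like phosphodiesterase 3b, a membrane enzyme related to acid sphingomyelinase, was represented by CL13034.Contig2, with 27 and 131 fragments, 4.75-fold higher (3.12 to 7.48), and a cluster log2 ratio of 2.22. Alkylglycerol monooxygenase, the enzyme that cleaves ether lipids, had the lowest log2 ratio of all members. Unigene73756 had 120 fragments in the control, 6.20 FPKM, and 0 in BDE-47, at least 40.8-fold lower against the 3-fragment floor. Its first Nr species is Bos taurus and not a mollusc, and the part of RNA from other animals in this value was not tested.

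**Figure D2:**
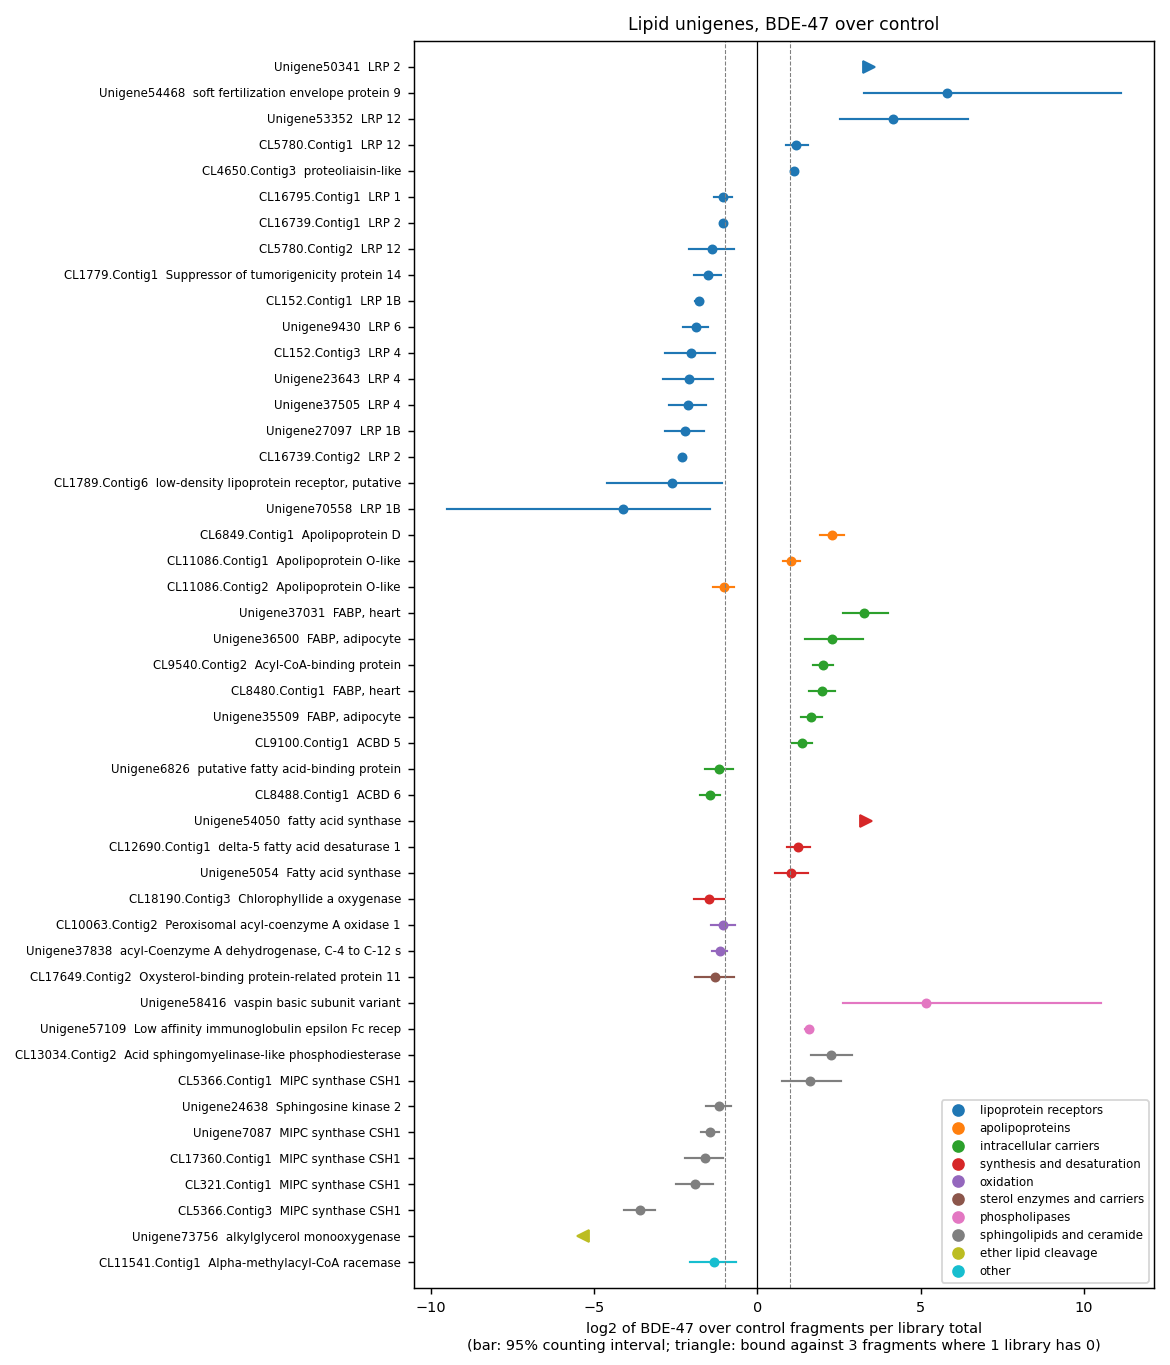
Each row is 1 lipid unigene, with the log2 of BDE-47 over control fragments per library total on the x axis, bars for the 95% counting interval, triangles for bounds where 1 library had 0 fragments, colours for roles and dashed lines at a log2 of 1 in either direction. Long bars belong to unigenes with 1 to 4 fragments in 1 library, such as Unigene54468 with a ratio of 55.8 (9.62 to 2243), and short bars to deeply covered receptors such as CL16739.Contig2, 4.93-fold lower (4.64 to 5.25).

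Contigs whose names share a CL number were read as 1 cluster, which may hold isoforms, alleles or close paralogs. The 27 members in clusters of more than 1 contig came from 22 clusters, with 37 further contigs. Of these sisters, 32 were outside the authors' calls, and 4 were higher, 3 lower and 30 not past the rule. When all contigs of a cluster were summed, 10 of the 27 kept their call (37.0%), 16 were no longer past the rule and 1, CL5366.Contig1, took the opposite call. Among the other described unigenes past the rule in such clusters, 32.5% kept it. Taking each cluster once left 42 units, of which 12 were higher and 15 lower. By the same count 10% of all clusters and single unigenes past the 20-fragment floor were higher and 12.7% lower.

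Summing left fewer calls in most roles. Of 8 carrier units, 4 were higher, 2 lower and 2 were not past the rule. Receptor units numbered 15, with 3 higher, 6 lower and 6 not past it, and the 3 higher ones were the thinly covered Unigene50341, Unigene54468 and Unigene53352. Of 6 sphingolipid units 1 was higher and 4 lower. Neither apolipoprotein unit and 1 of 2 oxidation units passed it. In the desaturase, acyl-CoA oxidase, acyl-CoA-binding protein and proteoliaisin-like clusters, a called contig stood beside a sister of similar length with the opposite balance. The sharing of fragments between near-identical contigs in the authors' counting, not given in the sources used here, was not tested for a part in these splits.

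**Figure D3:**
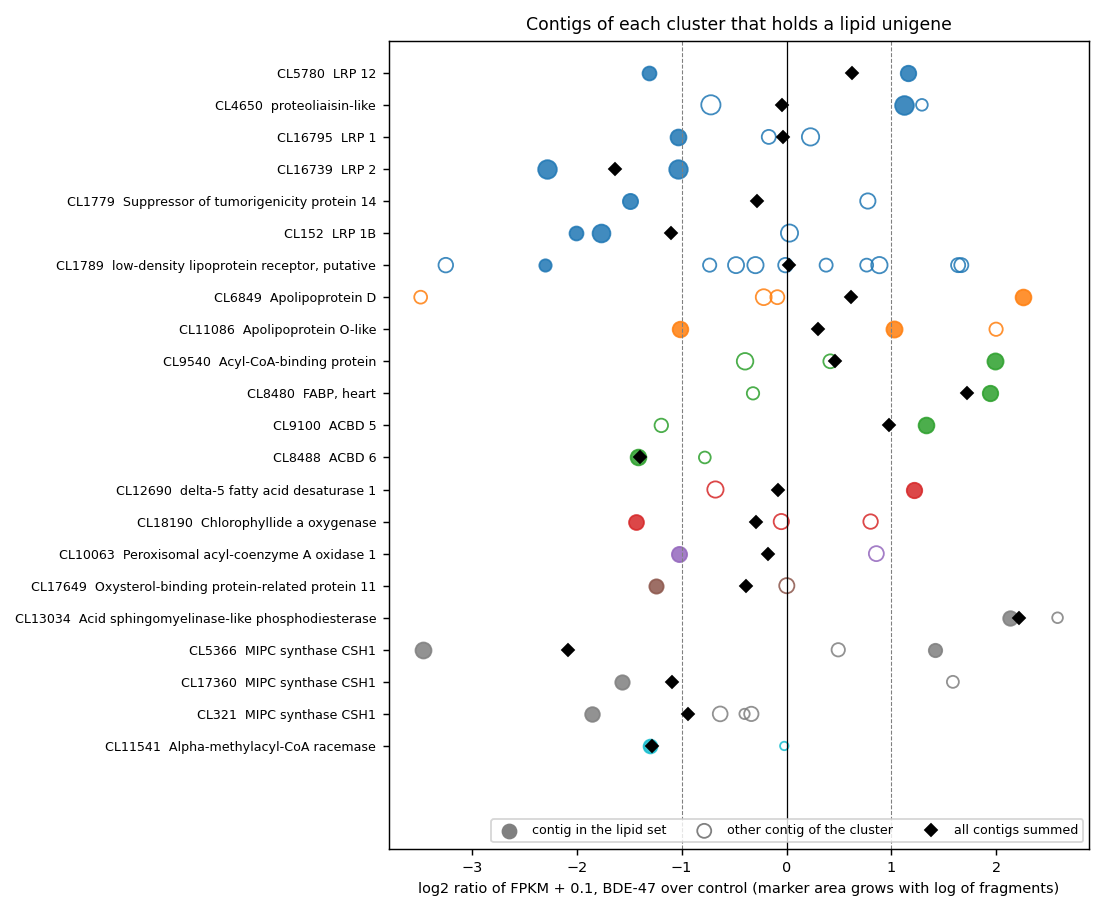
Each row is 1 of the 22 clusters, with the log2 ratio of FPKM + 0.1, BDE-47 over control, on the x axis for its lipid contigs (filled), its other contigs (open) and all contigs summed (black diamond). The diamonds of CL4650, CL16795, CL1789 and CL12690 lie near 0 although each row holds a contig past a dashed line, while those of CL16739, CL152 and CL5366 stay below a log2 ratio of -1.

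Members with almost no control fragments are set beside the rest here by the species of their first Nr match. The 5 higher members with at most 3 control fragments summed to 5 control and 212 BDE-47 fragments, and none had a mollusc as first match. These were Unigene50341, Unigene54468, Unigene53352, Unigene54050 and Unigene58416. Of the other 15 higher members 9 had a mollusc first, and of the 26 lower ones 19. The other described unigenes that were higher with at most 3 control fragments had a mollusc first in 118 of 268, and 54.4% of 1183 higher ones with more control fragments did. Unigenes with a copepod first, chosen after the values were seen, numbered 26 in the described table and summed to 102 control and 2371 BDE-47 fragments. No member had a copepod first, and the part of RNA from other animals in these 5 values was not tested.

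Unigenes outside the word rule were counted from a second list of lipid-related words. Of 108 described unigenes, 40 were higher, 55 lower and 13 not past the rule, with a median log2 ratio of -1.07. Scavenger receptor words matched 44 of the 108, with 16 higher, 22 lower and 6 not past the rule. Many of these carry that name in Swiss-Prot only, beside Nr names such as receptor-type tyrosine-protein phosphatase T, so not all of the 108 are lipid genes by name. Subsets of this list were chosen after the values were seen. Beside them, 33.9% of all described unigenes were higher and 60.1% lower. Lipases free fatty acids from glycerides, and of 8 lipase-named unigenes 5 were higher and 2 lower. A bile salt-activated lipase-like contig, CL16486.Contig1, had 409 control and 936 BDE-47 fragments. Unigene25284, whose Swiss-Prot match is an inactive pancreatic lipase-related protein, had 42 and 336. The lower CL8563.Contig5 had 112 and 51, and CL8563.Contig6 had 83 and 40. Unigenes with a phosphatidylinositol name, among them kinases, a phosphatase, a binding protein and a phosphodiesterase, were higher in 3 and lower in 11 of 16. Some of these carry the name in Swiss-Prot only. Vitellogenins, the yolk lipoproteins, numbered 11. Of these, 10 had a copepod as first Nr match, with 0 control and 1395 BDE-47 fragments, and the other, CL14368.Contig1, had 184 and 89. The 2 vitellogenin receptor-named unigenes, of the LDL receptor family, had been dropped by the word rule. Unigene45634 had 30 and 130 fragments, and Unigene16823 had 98 and 45.

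Since only called unigenes carry names, the tissue label could be checked only among them. Digestive gland words matched 32 described unigenes, 18 higher, 10 lower and 4 not past the rule. Their median log2 ratio was 2.48, while their summed fragments were 20228 and 12877, lower in BDE-47. Words for other cell types also matched unigenes that differed between the libraries. Mantle and shell words matched 16, 12 higher and 3 lower, with 2059 and 47695 fragments, and ciliated cell words 13, 1 higher and 11 lower, with 1926 and 777. Muscle words matched 20 with 4988 and 2653 fragments, haemocyte words 36 with 5025 and 9460, male germ cell words 15 with 7004 and 11812, and female germ cell words 25 with 10473 and 8176. In muscle 6 were higher and 13 lower, in haemocytes 18 and 16, in male germ cells 2 and 12, and in female germ cells 14 and 8. The female germ cell words include vitellogenin, and 10 of those 25 unigenes have a copepod as first Nr match. These 10 held 0 control and 1395 BDE-47 fragments, and 7 of them were higher. The single match to algal words was the DAF-36-like CL18190.Contig3. The part of cell makeup in the lipid values was not tested.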

How the data were processed

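Poly(A) RNA was sequenced on an Illumina HiSeq after PCR amplification, per the labels' protocols. Per the submitters' processing notes the base caller was CASAVA 1.5. The assembler, aligner, counter and significance test were not given in the sources used here. Raw counts of fragments for each unigene were deposited by the authors, and the library totals per the file headers equal their sums. The FPKM values the authors deposited were recomputed to within 5e-05. The log2 ratio the authors deposited is that of FPKM, with 0 set to 0.001. Only unigenes with a deposited FDR (adjusted p-value) below 0.001 and a log2 ratio of 1 or more in size carry descriptions, with an alignment score per the file headers, which was not used to filter members.

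Folds, exact conditional binomial (Clopper-Pearson) 95% intervals, the rule of size and cluster sums were computed with Python 3.11.15 and SciPy 1.17.1, on the whole table. TMM factors (edgeR 4.0.16) and median-of-ratios factors (DESeq2 1.42.0) came from unigenes with at least 20 fragments. The calling rule was tested on simulated counts. Those counts held counting error only, with no spread between libraries, so nothing on false calls from such spread follows from them. Fragments were amplified without molecular identifiers, so intervals cover counting error only. At the median length of 395 bases, 3 fragments make 0.486 FPKM (control) or 0.476 (BDE-47).

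Members, roles and word lists were chosen with earlier results of these data known. Roles come from words, Nr before Swiss-Prot. The naming rule takes, per role, the 4 members with most fragments and the highest and lowest log2 ratio, which gives 30. The other members and the sister contigs were named after their values were seen. Alternatives were other scalings, pseudocounts, floors, thresholds, cluster sums, 1 member per description and restricted member sets. No p-value was computed.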

Additional observations from a re-analysis of the deposited data

How the results depend on the processing

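The 20 higher and 26 lower members became 20 and 22 with TMM or median-of-ratios scaling, 15 and 19 with a pseudocount of 1 FPKM, 12 and 15 with clusters summed, 13 and 21 with a floor of 100 fragments, 17 and 17 with 1 member per description, 13 and 12 at an absolute log2 ratio of at least 1.5, and 9 and 8 at 2. Where both entries matched the words they were 8 and 11, and with a mollusc as first Nr species 9 and 19. The median log2 ratio of -1.04 became -0.92 with either scaling, -0.86 with a pseudocount of 1 FPKM, -0.0775 with clusters summed, -0.0045 with 1 member per description and -1.36 with a mollusc first. Members were chosen by a call, so a median of single members mainly shows which direction holds more of them. The -0.0045 lies where no member does and is not a typical shift. Lipoprotein receptors, 5 higher and 12 lower, became 3 and 6 with clusters summed, 2 higher with a floor of 100 fragments and 7 lower with 1 per description. Sphingolipid and ceramide unigenes, 2 higher and 5 lower, became 1 higher with a pseudocount of 1 FPKM, with clusters summed, with a floor of 100 fragments and with 1 per description, and 2 lower in the last. Intracellular carriers stayed within 1.5 times their counts in the alternatives run on them. Sums of clusters reversed the sign of CL4650.Contig3 (-0.0399), CL1789.Contig6 (0.0231), CL11086.Contig2 (0.30) and CL12690.Contig1 (-0.0775) among the 30 named members. With clusters summed, 42 units stood in place of the 47 members, and sister contigs outside the authors' calls entered the sums. Of the 27 members in clusters of more than 1 contig, 16 were then no longer past the rule. The sums had the opposite sign for 6 of the 27. Fewer units are also counted with 1 member per description, and causes of these changes were not tested. No paired analysis was possible because each group has 1 library. Depth limits the unigenes with 1 to 3 fragments in a library, whose intervals reach 2243 at the upper end.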
